A study of Homo sapiens with 12 samples.

Results

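Genes of ribosome biogenesis and of RNA polymerase I were examined in 2 human cancer cell lines after siRNA against PRKDC. The set was a list of 55 genes, chosen with earlier results of these data known. A gene counted as measured if 1 of its HumanHT-12 v4 probes was detected (detection p below 0.05) by the 3 arrays of some group. Of the 55, 52 had a probe paired with them and 49 were measured, among 10386 genes measured in all. NPM1, WDR3 and UTP20 had probes that did not pass, and WDR43, EBNA1BP2 and GNL3 were paired with none. TC32 comes from an Ewing sarcoma and HCT116 from a colorectal carcinoma. Each was transfected with siNeg, the negative control siRNA, or with siPRKDC at 20 nM, and RNA was taken after 48 h, with 3 samples in each of the 4 groups. TC32 was grown in RPMI-1640 and HCT116 in DMEM, both with 10% FBS, so line and medium cannot be told apart. Each tumour type is represented by 1 line, and the labels do not say whether the siRNA was a single duplex or a pool.

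In TC32, 25 of the 49 genes were higher with siPRKDC and 2 were lower, where 21.8% of all genes measured were higher and 21% lower, and the rises reached 1.93-fold for BOP1 and 1.92-fold for NOP56. In HCT116, 3 of the 49 were higher and 4 lower, where 9.2% of all genes were higher and 9.55% lower. The effect differed between the lines for 18 of the 49 genes, where it differed for 32% of all genes. The log2 change in TC32 minus that in HCT116, taken with its sign, was above 0 for 17 of them (16.4% of all genes). It was below 0 for 1 (15.5% of all genes). PNO1 and NAT10 rose in TC32 and fell in HCT116. The NAT10 calls in both lines and the PNO1 call in TC32 were lost when certain single arrays were left out.

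A ribosome starts in the nucleolus, where RNA polymerase I copies the ribosomal DNA into a long precursor RNA. Box C/D and box H/ACA snoRNPs modify that precursor, adding 2′-O-methyl groups and pseudouridines, while the small subunit processome folds and cuts its 5′ part and separate factors build the large subunit before both are exported. Many of these factors are made in proportion to growth, and MYC is known to bind E-boxes in the promoters of many of their genes. PRKDC encodes the catalytic subunit of DNA-dependent protein kinase, which acts in the repair of DNA double-strand breaks by end joining.

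Levels are background-corrected, quantile-normalized log2 intensities, and changes are differences of group means on that scale. Called genes have an adjusted p below 0.05 in limma's moderated test, with Benjamini-Hochberg adjustment over all 10386 genes. Adjusted p-values of single probes, those of ribosomal RNA among them, come from a fit of the 16555 kept probes, adjusted over these. Values given for an alternative come from limma's test refitted under that setting. Because all arrays are set to 1 distribution, a change in the amount of RNA per cell, or in the number of cells behind a sample, cannot be told apart from no change. The labels do not state that samples of a group were cultured separately, so p-values here reflect the spread between samples alone, which may be technical.

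PRKDC itself was lower with siPRKDC in every sample. In TC32 it read 6.61, 6.61 and 6.90 with siNeg and 5.21, 5.03 and 5.66 with siPRKDC, a fall of 2.65-fold (log2 change -1.41, SE 0.14, adjusted p = 3.80e-08). In HCT116 it read 7.28, 7.42 and 7.05 against 4.48, 4.51 and 4.79, a fall of 6.31-fold (log2 change -2.66, SE 0.14, adjusted p = 4.87e-11). The groups did not overlap in either line. These values rest on the brightest PRKDC probe. With the mean of its kept probes the falls were 1.06 in TC32 and 1.39 in HCT116 on the log2 scale, and the difference between the lines was 0.33 and not called (adjusted p = 0.0596), in place of 1.25 (adjusted p = 4.59e-05). All 7 Ewing sarcoma markers with a probe were detected on all 6 TC32 arrays. In HCT116, CD99 and STEAP1 were also detected on all 6 arrays, and NKX2-2 and LIPI on none. PAPPA was detected on 1 HCT116 siPRKDC array, PRKCB and CCK on 2 each, and none of them on an HCT116 siNeg array. Of 8 colorectal epithelial markers, 6 were detected on all 6 HCT116 arrays and 6 on no TC32 array, and VIL1 was detected in neither line. KRT18 was detected on 1 TC32 siNeg array and 3 TC32 siPRKDC arrays. CLDN4 was detected on 1 TC32 siPRKDC array, 2 HCT116 siPRKDC arrays and no HCT116 siNeg array. Detected probes numbered 16324 to 16603 per array in TC32 siNeg, 15396 to 16216 in TC32 siPRKDC, 17658 to 17740 in HCT116 siNeg and 17101 to 18153 in HCT116 siPRKDC, of 47322. Arrays of 1 group correlated at 0.990 to 0.994, and no array stood apart from its group.

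Of the 49 genes, the 25 called higher in TC32 make 51%, against 21.8% of all genes measured, and the 2 called lower make 4.08%, against 21%. The median change over the 49 was 0.27 on the log2 scale (quartiles 0.05 and 0.41), and the median over all genes was 0.01. It was 0.12 with no background correction, 0.18 with an offset of 50 and 0.13 in the authors' deposited log2 values. The changes ran from -0.43 for WDR75 to 0.95 for BOP1, none reached 2-fold, and 40 of the 49 were above 0. For 24 genes the 3 siPRKDC values all lay above the 3 siNeg values and for 5 all below, against 24.7% and 23.5% of all genes. Leaving out 1 of the 6 TC32 arrays at a time gave 20 to 26 genes higher and 1 to 3 lower, with the shares of all genes in those fits not given here. A wider list of 110 other ribosome biogenesis genes, of which 98 were measured, had 38 higher and 10 lower. Both lists were chosen with earlier results of these data known, so neither count is independent of that choice.

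**Figure D1:**
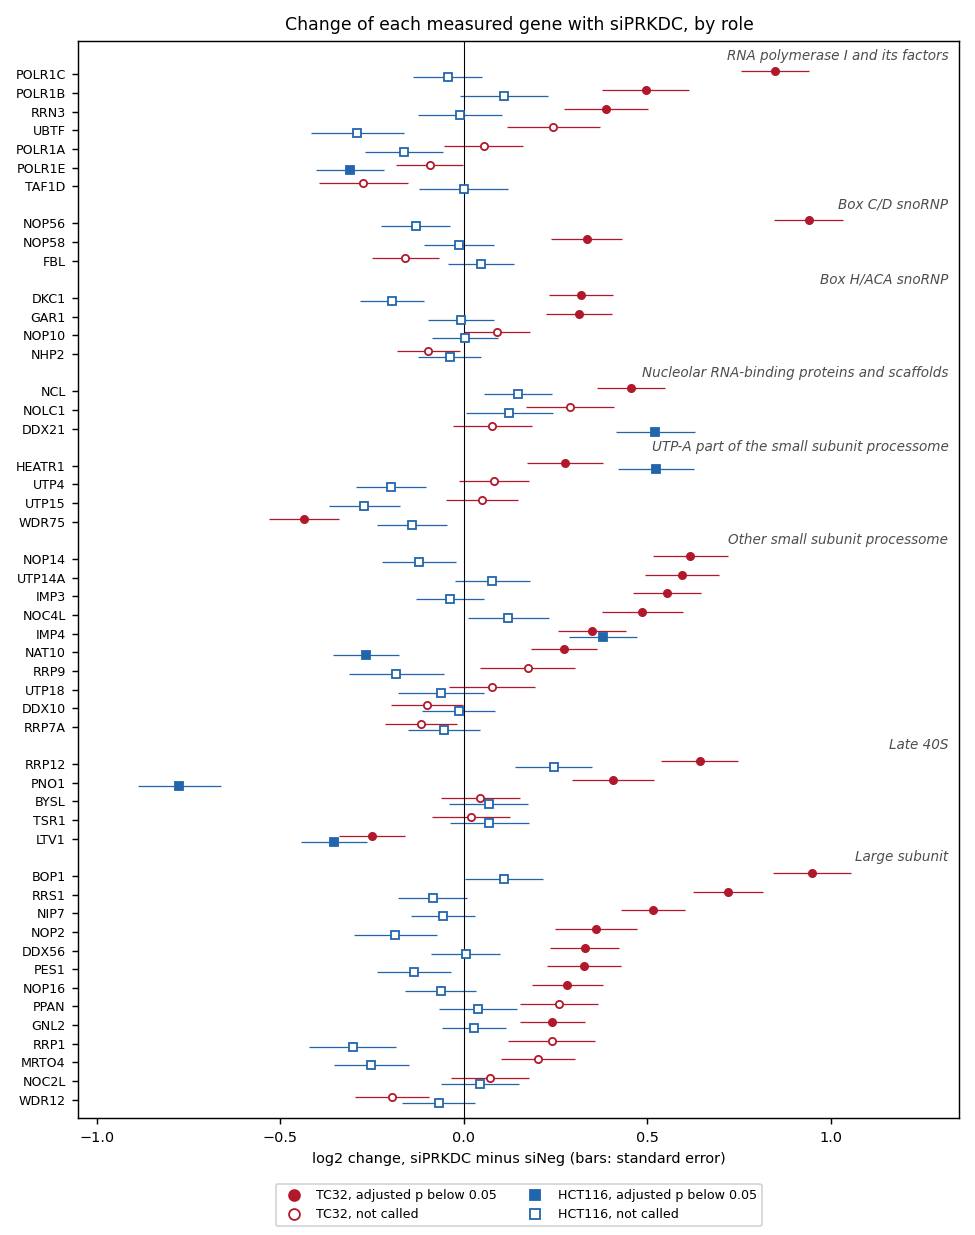
Log2 change with siPRKDC (x axis, siPRKDC minus siNeg, with the standard error as a bar) for each of the 49 measured genes, grouped by role, in TC32 (circles) and HCT116 (squares). Filled symbols have an adjusted p below 0.05; in TC32, 25 lie to the right of 0 and 2 to the left, and in HCT116, 3 and 4.

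The probes of ribosomal RNA genes moved in the same samples. Of the 2 probes for RNA28SN5, the 28S rRNA gene, the first ran from 6.80 to 7.45 with siNeg and from 10.1 to 10.3 with siPRKDC in TC32, a change of 3.07 (adjusted p = 8.41e-12). The second changed by 1.69 (adjusted p = 1.47e-08), the RNA18SN5 probe by 1.39 (adjusted p = 3.82e-08) and the RNA5S9 probe by 2.28 (adjusted p = 3.88e-11). In HCT116 the corresponding changes were 0.69 (adjusted p = 0.00737), 0.24 (adjusted p = 0.320), 0.05 (adjusted p = 0.845) and 0.57 (adjusted p = 0.00653). Mature rRNA has no poly(A) tail and the amplification kit primes on poly(A), so these probes are not a calibrated measure of rRNA. The TC32 siPRKDC arrays also had the fewest detected probes. The part of either in the changes of the 49 genes was not tested.

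The promoter windows of these genes, 250 bases before to 50 after the start in RefSeq on GRCh38.p14, were searched for the E-box CACGTG, which reads the same on both strands. A window was at hand for 43 of the 49 genes, and 18 of them (41.9%) held the motif, against 1085 of 8406 measured genes (12.9%) and 2396 of 27305 genes with a window (8.77%). Among the members called higher in TC32, 9 of 21 with a window held it (42.9%), and among the other measured members 9 of 22 (40.9%). Over all measured genes, 306 of 1825 called higher in TC32 held it (16.8%), against 779 of 6581 not called higher (11.8%). Whether the motif bears on the rise was not tested. In the 50 bases from the start on, 12 of the 43 held it (27.9%), against 133 of 8406 (1.58%). Wholly before the start the shares were 7 of 43 (16.3%) and 965 of 8406 (11.5%). A match describes letters only and does not show binding. The sites below are 30-base windows on the gene's strand, 5′ to 3′, with the E-box in capitals. They show the motif just after the start in genes called higher (NOP14, PES1, GAR1, GNL2 and IMP4). The same holds for both genes with opposite calls, PNO1 and NAT10, except that the NAT10 site lies just before the start. It also holds for LTV1, called lower in both lines, and for FBL, called in neither. Genes called higher in TC32 are over-represented among the printed sites. BYSL, MRTO4, UTP18, RRP9, UTP4, NOP10 and DDX21 were not called higher there and held the motif at sites not printed.
NOP14, chr4:2963374-2963403, minus strand: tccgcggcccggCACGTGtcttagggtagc
PES1, chr22:30591880-30591909, minus strand: tccttggcagggCACGTGcgggaggaagtg
GAR1, chr4:109815781-109815810, plus strand: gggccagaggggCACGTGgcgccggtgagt
GNL2, chr1:37595917-37595946, minus strand: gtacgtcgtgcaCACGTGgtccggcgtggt
IMP4, chr2:130342900-130342929, plus strand: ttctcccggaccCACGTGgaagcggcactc
PNO1, chr2:68157885-68157914, plus strand: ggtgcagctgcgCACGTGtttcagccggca
NAT10, chr11:34105602-34105631, plus strand: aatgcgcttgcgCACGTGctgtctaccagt
LTV1, chr6:143843354-143843383, plus strand: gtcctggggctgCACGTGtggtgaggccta
FBL, chr19:39846356-39846385, minus strand: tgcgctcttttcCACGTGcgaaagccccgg

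**Figure D2:**
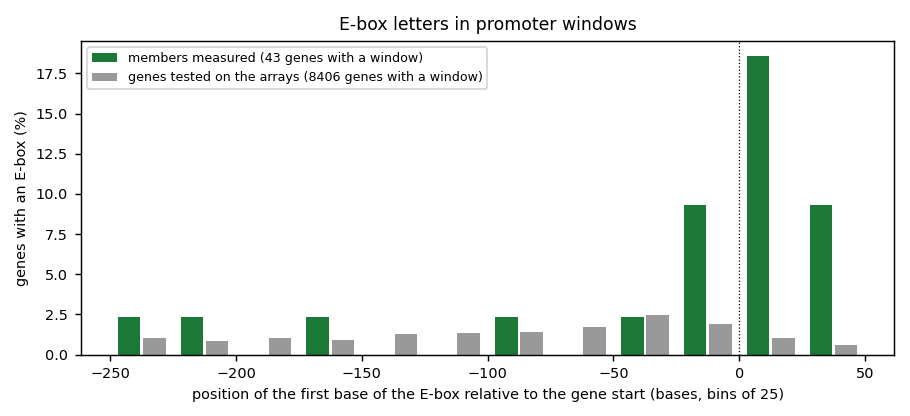
Share of genes (y axis, percent) with an E-box whose first base falls in each 25-base bin of the promoter window (x axis, bases from the gene start), for the 43 measured members with a window (green) and the 8406 measured genes with one (grey). The highest bar is that of the members in the first 25 bases after the start, 18.6% against 1.01%, from 8 genes.

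RNA polymerase I and its initiation factors were higher in TC32 for 3 of 7 genes, where 21.8% of all genes were higher. The wider list holds other subunits of the enzyme, and those named here were chosen after their values were seen. Among them POLR1H (log2 change -0.84, SE 0.12, adjusted p = 4.84e-06) and POLR1D (-0.58, SE 0.10, adjusted p = 4.01e-05) fell in TC32, while POLR1F rose (0.53, SE 0.12, adjusted p = 0.000806) and POLR1G changed by 0.18 (adjusted p = 0.330), so the subunits did not move alike. POLR1C, a subunit that RNA polymerases I and III share, read 6.95, 7.02 and 7.13 with siNeg and 7.90, 7.99 and 7.76 with siPRKDC. The groups lay well apart, and the gene rose 1.80-fold (log2 change 0.85, SE 0.09, adjusted p = 2.25e-07). RRN3, which brings the polymerase to the ribosomal DNA promoter, read 4.85, 4.95 and 4.49 against 5.37, 4.96 and 5.12, with 1 siPRKDC sample only just above the highest control (log2 change 0.39, SE 0.11, adjusted p = 0.00920). Its call was lost under 3 of 18 alternatives, without siNeg replicate 3 (log2 change 0.25, adjusted p = 0.0792), without siPRKDC replicate 1 (0.28, adjusted p = 0.0753) and in the authors' deposited log2 values (0.12, adjusted p = 0.0553), and its adjusted p ran down to 0.00368. POLR1B, the second-largest subunit, rose by 0.49 (SE 0.12, adjusted p = 0.00184). The largest subunit POLR1A changed by 0.05 (adjusted p = 0.738), but its probe was detected on only 2 arrays of each TC32 group. UBTF, which binds along the ribosomal genes, changed by 0.24 (adjusted p = 0.132), the subunit POLR1E by -0.09 (adjusted p = 0.454) and TAF1D, part of the promoter factor SL1, by -0.27 (adjusted p = 0.0743). TAF1D was called lower with array weights (log2 change -0.32, adjusted p = 0.0390) and without siNeg replicate 3 (log2 change -0.41, adjusted p = 0.0103). RRN3 has pseudogenes of near-identical sequence, whose transcripts this probe may not separate.

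Of the same 7 genes, 1 was called in HCT116, where 18.8% of all genes were called. POLR1E read 7.42, 7.64 and 7.49 with siNeg and 7.26, 7.22 and 7.15 with siPRKDC, and the groups did not overlap. The log2 change was -0.31 (SE 0.09, adjusted p = 0.0200). That call was lost without siNeg replicate 2 (adjusted p = 0.104), without siPRKDC replicate 3 (0.0777) and with the mean of its 2 probes (log2 change -0.20, adjusted p = 0.113), and over 19 alternatives the adjusted p ran from 0.00224 to 0.113. POLR1C read 8.10, 7.95 and 7.99 against 8.04, 7.95 and 7.92 and overlapped (log2 change -0.04, SE 0.09, adjusted p = 0.814), while its dimmer probe was called higher by 0.31. RRN3 stayed between 5.91 and 6.02 on all 6 HCT116 arrays. UBTF, detected on 2 of the 3 HCT116 siPRKDC arrays, changed by -0.29 (adjusted p = 0.122), and its TC32 minus HCT116 difference was 0.53 (SE 0.18, adjusted p = 0.0268). That difference was lost under 8 of 22 alternatives, with adjusted p between 0.0114 and 0.0919, among them leaving out TC32 siNeg replicate 3 (0.0751), TC32 siPRKDC replicate 1 (0.0919), HCT116 siNeg replicate 1 (0.0643) or 3 (0.0550), or HCT116 siPRKDC replicate 2 (0.0917). With no background correction it was 0.16 and with an offset of 50 it was 0.24. The POLR1C difference was 0.89 (SE 0.13, adjusted p = 2.52e-05).

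Of the core proteins of box C/D snoRNPs, which guide 2′-O-methylation, NOP56 and NOP58 rose in TC32 and the methyltransferase fibrillarin (FBL) did not. NOP56 read 8.23, 8.35 and 8.27 with siNeg and 9.25, 9.18 and 9.24 with siPRKDC (log2 change 0.94, SE 0.09, adjusted p = 5.04e-08). The samples within each group lay close together, far from the other group. In HCT116 NOP56 read 9.21, 9.30 and 9.35 against 9.32, 9.07 and 9.06, and the groups overlapped (log2 change -0.13, SE 0.09, adjusted p = 0.376). Its effects in the lines differed by 1.07 (SE 0.13, adjusted p = 2.68e-06). NOP58, its partner, rose in TC32 by 0.33 (SE 0.10, adjusted p = 0.00741), was lost without siNeg replicate 3 (adjusted p = 0.0538, against a lowest of 0.000579 over 19 alternatives), and changed by -0.01 in HCT116 (adjusted p = 0.948). FBL changed by -0.16 in TC32 (SE 0.09, adjusted p = 0.168), where the groups did not overlap, and was called lower in the values without background correction (log2 change -0.14, adjusted p = 0.0315), with an offset of 50 (log2 change -0.15, adjusted p = 0.0497) and in the authors' deposited values (log2 change -0.15, adjusted p = 0.0318).

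The box H/ACA proteins carry out and assist pseudouridylation, and DKC1 is the pseudouridine synthase among them. DKC1 rose in TC32 by 0.32 (SE 0.09, adjusted p = 0.00556), from a mean of 8.66 ± 0.06 (SD, n = 3) to 8.98 ± 0.02. GAR1 rose by 0.31 (SE 0.09, adjusted p = 0.00694), and 3 of its 4 probes were called. NHP2 changed by -0.10 (adjusted p = 0.402). NOP10, the smallest of the 4 proteins, was among the 3 genes with the least change over both lines. It read 10.07, 10.11 and 10.27 against 10.26, 10.20 and 10.25 in TC32 and 10.31, 10.29 and 10.38 against 10.42, 10.30 and 10.27 in HCT116, so both pairs of groups overlapped. None of the 4 was called in HCT116, where 18.8% of all genes were called. DKC1 changed there by -0.20 (SE 0.09, adjusted p = 0.134) and was called lower under 4 alternatives: without background correction (adjusted p = 0.0149), median scaling (0.0441), an offset of 50 (0.0263) and the authors' deposited values (0.0209). The DKC1 effect was larger in TC32 by 0.52 (SE 0.12, adjusted p = 0.00313).

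**Figure D3:**
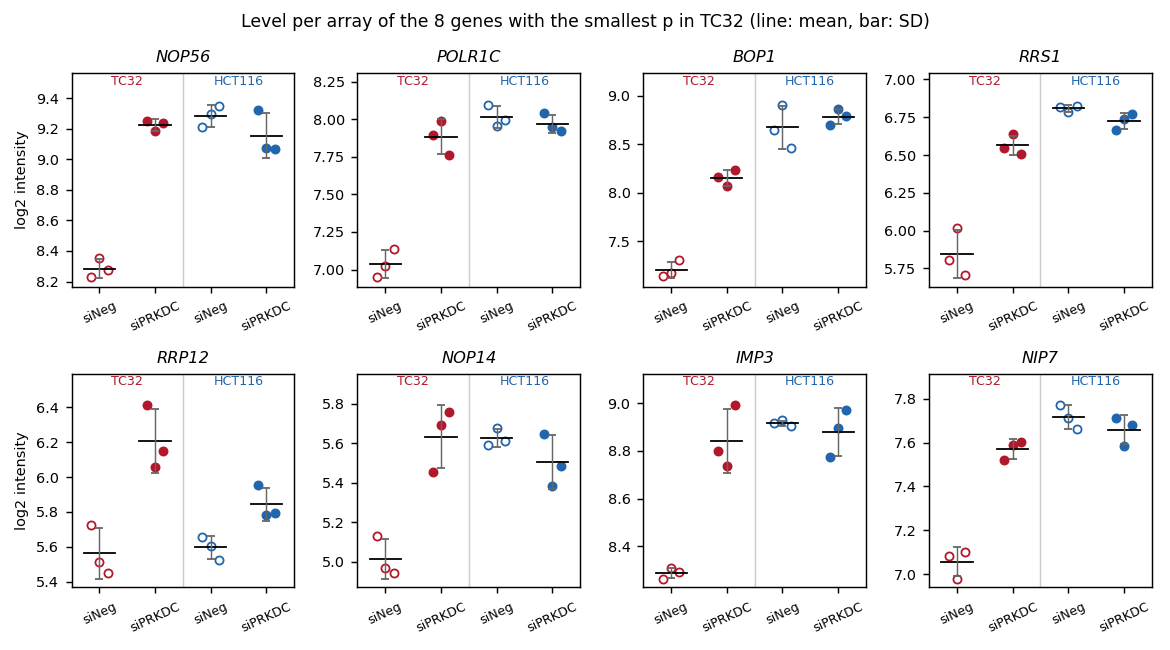
Log2 intensity (y axis) on each array for the 8 genes with the smallest p in TC32, with siNeg as open and siPRKDC as filled circles, TC32 left and HCT116 right, a line at the mean and a bar for the SD of 3 samples. In TC32 the filled circles lie above the open ones in all 8 panels; in HCT116 they overlap in all but RRP12 and RRS1.

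Of 3 measured nucleolar RNA-binding proteins, 1 was called higher in each line, where 21.8% of all genes were higher in TC32 and 9.2% in HCT116. So few genes show nothing about the group. Nucleolin (NCL) rose in TC32 by 0.46 (SE 0.09, adjusted p = 0.000375), and only 1 of its 2 probes was called. NOLC1, a scaffold of snoRNP assembly, changed by 0.29 (SE 0.12, adjusted p = 0.0551) and was called higher under 5 of the alternatives, with adjusted p down to 0.00790 without siNeg replicate 2. DDX21, an RNA helicase of the nucleolus, read 8.47, 8.41 and 8.28 against 8.40, 8.59 and 8.41 in TC32, where the groups overlapped. The HCT116 arrays gave 8.18, 7.85 and 8.12 against 8.52, 8.75 and 8.45, with every siPRKDC value above every control, and rose 1.44-fold (log2 change 0.52, SE 0.11, adjusted p = 0.00136). DDX21 was the 1 gene called with a smaller effect in TC32, by 0.44 (SE 0.15, adjusted p = 0.0289). Without TC32 siNeg replicate 1 or 2, TC32 siPRKDC replicate 1 or 3, HCT116 siNeg replicate 2 or HCT116 siPRKDC replicate 2 that difference was not called (adjusted p = 0.0679, 0.0507, 0.0650, 0.0599, 0.0934 and 0.0902), and over 23 alternatives its adjusted p ran from 0.00968 to 0.236, the last with median scaling, where the difference was -0.27.

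The UTP-A proteins join the precursor RNA while it is still being made. HEATR1, the largest of them, read 7.69, 7.86 and 7.98 with siNeg and 8.01, 8.07 and 8.28 with siPRKDC in TC32, with the lowest treated value just above the highest control (log2 change 0.28, SE 0.10, adjusted p = 0.0350). HCT116 values were 6.82, 6.71 and 6.53 against 7.21, 7.20 and 7.23 and rose 1.44-fold (log2 change 0.52, SE 0.10, adjusted p = 0.000954). The groups did not overlap in either line, and the effects differed by -0.25 (SE 0.15, adjusted p = 0.207). The TC32 call was lost under 5 of 19 alternatives, with adjusted p from 0.00954 to 0.176: without siNeg replicate 1 (0.174) or 2 (0.0590), without siPRKDC replicate 3 (0.176), with no filter (0.0541) and with each line fitted alone (0.0629). WDR75 fell in TC32 by 0.43 (SE 0.10, adjusted p = 0.000806), from a mean of 8.12 ± 0.05 (SD, n = 3) to 7.68 ± 0.11, and changed by -0.14 in HCT116 (adjusted p = 0.346). UTP4 and UTP15 were called in neither line. UTP4 was called lower in HCT116 with no background correction (log2 change -0.16, adjusted p = 0.0454), with median scaling (-0.30, adjusted p = 0.0337) and in the authors' deposited values (-0.16, adjusted p = 0.0466). UTP15 changed by -0.27 in HCT116 (adjusted p = 0.0564), where 1 siPRKDC array did not detect it, and was called lower under 7 of the alternatives there.

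Other proteins of the small subunit processome were higher in TC32 for 6 of 10 genes and lower for none, where 21.8% of all genes were higher and 21% lower. NOP14 read 5.13, 4.97 and 4.95 with siNeg and 5.45, 5.69 and 5.76 with siPRKDC (log2 change 0.62, SE 0.10, adjusted p = 3.87e-05). NOC4L, its partner in the particle, was detected on 2 of the 3 siNeg arrays and rose by 0.49 (SE 0.11, adjusted p = 0.00105), and UTP14A by 0.59 (SE 0.10, adjusted p = 5.99e-05). IMP3 and IMP4 help the U3 snoRNA pair with the precursor. IMP3 read 8.27, 8.31 and 8.29 against 8.80, 8.74 and 8.99 (log2 change 0.55, SE 0.09, adjusted p = 4.91e-05), and IMP4 read 8.10, 8.14 and 8.33 against 8.56, 8.44 and 8.62 (log2 change 0.35, SE 0.09, adjusted p = 0.00428). None of NOP14, IMP3 and IMP4 had overlapping groups. RRP9, UTP18, DDX10 and RRP7A changed by 0.17, 0.08, -0.10 and -0.12 and were not called (adjusted p = 0.305, 0.653, 0.455 and 0.369).

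In HCT116, IMP4 was the 1 gene of these 10 that rose, and NAT10 the 1 that fell, where 9.2% of all genes were higher and 9.55% lower. IMP4 read 8.49, 8.54 and 8.48 against 8.81, 8.87 and 8.96 without overlap (log2 change 0.38, SE 0.09, adjusted p = 0.00589), and its effects in the lines differed by -0.03 (SE 0.13, adjusted p = 0.880). Median scaling ended the HCT116 call (adjusted p = 0.0631), the highest of 19 alternatives, which began at 0.000292. NOP14 read 5.59, 5.68 and 5.61 against 5.65, 5.38 and 5.49, IMP3 8.91, 8.93 and 8.91 against 8.77, 8.89 and 8.97, and both overlapped. The effect was larger in TC32 by 0.74 for NOP14 (SE 0.14, adjusted p = 0.000437), by 0.59 for IMP3 (SE 0.13, adjusted p = 0.00151) and by 0.52 for UTP14A (SE 0.14, adjusted p = 0.00833).

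NAT10, the acetyltransferase that modifies cytidines of 18S rRNA, moved in opposite directions. In TC32 it read 7.33, 7.42 and 7.47 with siNeg and 7.68, 7.61 and 7.75 with siPRKDC (log2 change 0.27, SE 0.09, adjusted p = 0.0180). In HCT116 it read 7.83, 7.87 and 7.80 against 7.65, 7.46 and 7.59 (log2 change -0.27, SE 0.09, adjusted p = 0.0422). The groups did not overlap in either line, and the difference of the effects was 0.54 (SE 0.13, adjusted p = 0.00258), which stayed called in all alternatives run. The call within each line was less firm. In TC32 it needed siNeg replicate 1 (adjusted p = 0.0726 when left out) and siPRKDC replicate 3 (0.0695 when left out), with a range of 0.00181 to 0.0726 over 19 alternatives. In HCT116 it was lost under 7 of 19, without siNeg replicate 1 (0.0943), 2 (0.115) or 3 (0.0714), without siPRKDC replicate 2 (0.171) or 3 (0.0778), with cyclic loess (0.0602) and with the replicate block (0.0514), with a range of 0.00280 to 0.171.

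Factors of late 40S assembly held the other gene with opposite calls. PNO1, which holds the 3′ end of the future 18S rRNA together with the nuclease NOB1, read 4.92, 5.38 and 5.42 with siNeg and 5.67, 5.55 and 5.72 with siPRKDC in TC32. The first control was far below the other 2, and the groups did not overlap (log2 change 0.41, SE 0.11, adjusted p = 0.00567). Without that control the change was 0.25 and not called (adjusted p = 0.0618), the highest of 19 alternatives, which began at 0.00215. In HCT116 PNO1 read 5.67, 5.69 and 5.55 against 4.92, 4.80 and 4.86, wholly apart, and fell 1.71-fold (log2 change -0.78, SE 0.11, adjusted p = 3.89e-05). Its difference of 1.18 (SE 0.16, adjusted p = 7.85e-06) was the largest among the 49 genes. RRP12, which in yeast takes part in the export of both subunits, read 5.73, 5.51 and 5.45 against 6.41, 6.05 and 6.15 in TC32 and rose 1.56-fold (log2 change 0.64, SE 0.11, adjusted p = 3.76e-05). The HCT116 values were 5.66, 5.61 and 5.53 against 5.95, 5.79 and 5.79, also without overlap, but was not called (log2 change 0.25, SE 0.11, adjusted p = 0.114).

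LTV1, needed to mature the 40S particle, was the 1 gene called lower in both lines. In TC32 it read 7.52, 7.55 and 7.35 against 7.11, 7.26 and 7.30 (log2 change -0.25, SE 0.09, adjusted p = 0.0296), and in HCT116 7.87, 7.89 and 7.89 against 7.55, 7.49 and 7.55 (log2 change -0.35, SE 0.09, adjusted p = 0.00813). The groups lay apart in both lines. The TC32 call was lost under 5 of 19 alternatives, without siNeg replicate 1 (adjusted p = 0.0902) or 2 (0.103), without siPRKDC replicate 1 (0.139), with median scaling (0.126) and with each line fitted alone (0.0628), with a range of 0.00461 to 0.139. TSR1, a GTPase-like 40S factor, changed least of all 49 in TC32, reading 6.41, 6.25 and 6.54 against 6.47, 6.44 and 6.35, and it read 6.35, 6.10 and 6.45 against 6.36, 6.25 and 6.50 in HCT116. BYSL, another 40S factor, read 6.30, 6.44 and 6.05 against 6.36, 6.29 and 6.28 in TC32 and 6.50, 6.55 and 6.62 against 6.83, 6.50 and 6.54 in HCT116. TSR1 and BYSL overlapped between the groups in both lines.

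**Figure D4:**
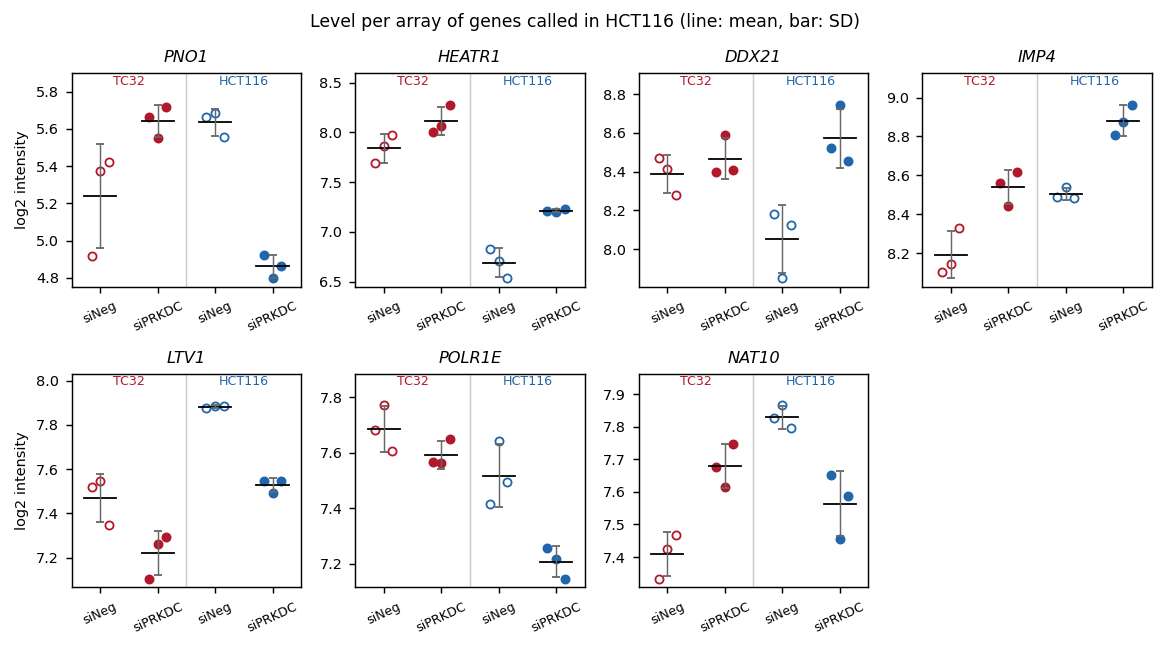
Log2 intensity (y axis) on each array for the 7 genes called in HCT116, with siNeg as open and siPRKDC as filled circles, TC32 left and HCT116 right, a line at the mean and a bar for the SD of 3 samples. PNO1 and NAT10 go up on the left and down on the right, LTV1 goes down on both sides, and HEATR1 and IMP4 go up on both.

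Large subunit factors were higher in TC32 for 8 of 13 genes and lower for none, where 21.8% of all genes were higher and 21% lower, and 12 of the 13 changes were above 0. BOP1, PES1 and WDR12 form the PeBoW complex, which is required to process the precursor of 28S rRNA. BOP1 read 7.14, 7.17 and 7.30 with siNeg and 8.16, 8.07 and 8.23 with siPRKDC (log2 change 0.95, SE 0.11, adjusted p = 2.54e-07). PES1 rose by 0.33 (SE 0.10, adjusted p = 0.0116), although not without siPRKDC replicate 1 (adjusted p = 0.0637, against a lowest of 0.00442 over 19 alternatives). WDR12 changed by -0.20 (SE 0.10, adjusted p = 0.121), and its dimmer probe was called lower at -0.28, as was the mean of its kept probes (-0.24, adjusted p = 0.0306), so the 3 partners did not move alike. In HCT116 BOP1 read 8.65, 8.91 and 8.47 against 8.70, 8.86 and 8.79 and overlapped (log2 change 0.11, SE 0.11, adjusted p = 0.537). The BOP1 difference was 0.84 (SE 0.15, adjusted p = 0.000186).

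RRS1 brings the 5S particle into the large subunit. It read 5.80, 6.02 and 5.71 against 6.54, 6.64 and 6.51 in TC32 and rose 1.65-fold (log2 change 0.72, SE 0.09, adjusted p = 2.21e-06). In HCT116 it read 6.82, 6.78 and 6.83 against 6.67, 6.74 and 6.77, with the siPRKDC values all lower but by little (log2 change -0.09, SE 0.09, adjusted p = 0.599), and the effects differed by 0.80 (SE 0.13, adjusted p = 8.50e-05). NIP7, which takes part in 60S assembly, read 7.08, 6.98 and 7.10 against 7.52, 7.59 and 7.60 in TC32 (log2 change 0.51, SE 0.09, adjusted p = 5.94e-05). In HCT116 it read 7.77, 7.71 and 7.66 against 7.71, 7.58 and 7.68 (log2 change -0.06, SE 0.09, adjusted p = 0.723). Both genes were apart in TC32, and NIP7 overlapped in HCT116.

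The remaining large subunit genes moved less. DDX56, a helicase, rose in TC32 by 0.33 (adjusted p = 0.00680), the 28S rRNA methyltransferase NOP2 by 0.36 (adjusted p = 0.0129), NOP16 by 0.28 (adjusted p = 0.0211) and the GTPase GNL2 by 0.24 (adjusted p = 0.0308). The last 3 were open to single arrays. NOP2 lost its call when siNeg replicate 2 (adjusted p = 0.0823) or siPRKDC replicate 1 (0.0506) or 3 (0.0796) was left out and with the mean of its 4 probes (log2 change 0.15, adjusted p = 0.113), of which 2 were called. NOP16 was lost without siNeg replicate 2 (0.109), siPRKDC replicate 1 (0.0553) or 3 (0.0535), and GNL2 without siNeg replicate 2 (0.0860) or 3 (0.0778), without siPRKDC replicate 1 (0.0536) or 2 (0.119) and with each line fitted alone (0.0557). Their lowest adjusted p over the 19 alternatives were 0.00215, 0.00324 and 0.00142. PPAN, RRP1, MRTO4 and NOC2L changed by 0.26, 0.24, 0.20 and 0.07 and were not called (adjusted p = 0.0549, 0.111, 0.115 and 0.636). PPAN was called higher there with a detection p below 0.01 required on all arrays (adjusted p = 0.0372), with array weights (0.0416) and without siNeg replicate 2 (0.0121) or siPRKDC replicate 2 (0.0266). RRP1 was called higher without siNeg replicate 2 (adjusted p = 0.0350) and MRTO4 without siNeg replicate 3 (0.0260). None of the 13 was called in HCT116, where 18.8% of all genes were called. RRP1 changed there by -0.30 (adjusted p = 0.0799) and MRTO4 by -0.25 (adjusted p = 0.0897). Median scaling gave lower calls for RRP1 (adjusted p = 0.0454) and MRTO4 (0.0249), as did the omission of siPRKDC replicate 2 for RRP1 (0.0445) and the authors' deposited values for MRTO4 (0.0344). Both were called in the difference, which was 0.54 for RRP1 (adjusted p = 0.0166) and 0.45 for MRTO4 (adjusted p = 0.0186). The RRP1 difference was lost without TC32 siPRKDC replicate 3 (adjusted p = 0.0513) or HCT116 siPRKDC replicate 1 (0.0597), and the MRTO4 difference without TC32 siNeg replicate 2 (0.0586) or HCT116 siNeg replicate 3 (0.0504). PPAN overlaps a read-through transcript with its neighbour P2RY11, which this probe may not separate.

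Over the whole list in HCT116, 3 of 49 genes were called higher (6.12%, against 9.2% of all genes) and 4 lower (8.16%, against 9.55%). The median change was -0.04, against 0.00 over all genes, with 18 genes above 0 and 31 below. Under median scaling of the arrays the calls were 2 higher and 9 lower, against 6.51% and 13.5% of all genes, and in the authors' deposited log2 values 3 and 7, against 10.9% and 10.8%. Without siNeg replicate 2 or without siPRKDC replicate 3 the lower calls were 2 in place of 4, with the shares of all genes in those fits not given here. Groups did not overlap for 4 genes upward and 9 downward, against 17.4% and 17.8% of all genes. The wider list gave 4 higher and 8 lower of 98.

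For the TC32 minus HCT116 difference of the effects, 17 of 49 genes were called above 0 (34.7%, against 16.4% of all genes). Below 0 there was 1 (2.04%, against 15.5%), where 32% of all genes were called either way. The sign does not say in which line a gene moved further, since PNO1 changed by 0.41 in TC32 and by -0.78 in HCT116. The median difference was 0.32, against 0.01 over all genes. It was 0.15 with no background correction and 0.19 with an offset of 50. PNO1 and NOP56 differed by more than 2-fold. By role, 7 of 13 large subunit genes, 4 of 10 other processome genes, 2 of 7 RNA polymerase I genes, 2 of 5 late 40S genes and 1 each of the box C/D and H/ACA proteins were called upward, and none of the 4 UTP-A genes was called. Under median scaling 26 genes were called upward and none downward. The shares of all genes given above are not those under median scaling, so these counts cannot be set against them. Of the 98 measured genes of the wider list, 30 were called above 0 and 8 below 0. This difference uses the same 12 arrays as the comparisons within each line and is no further evidence for either.

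**Figure D5:**
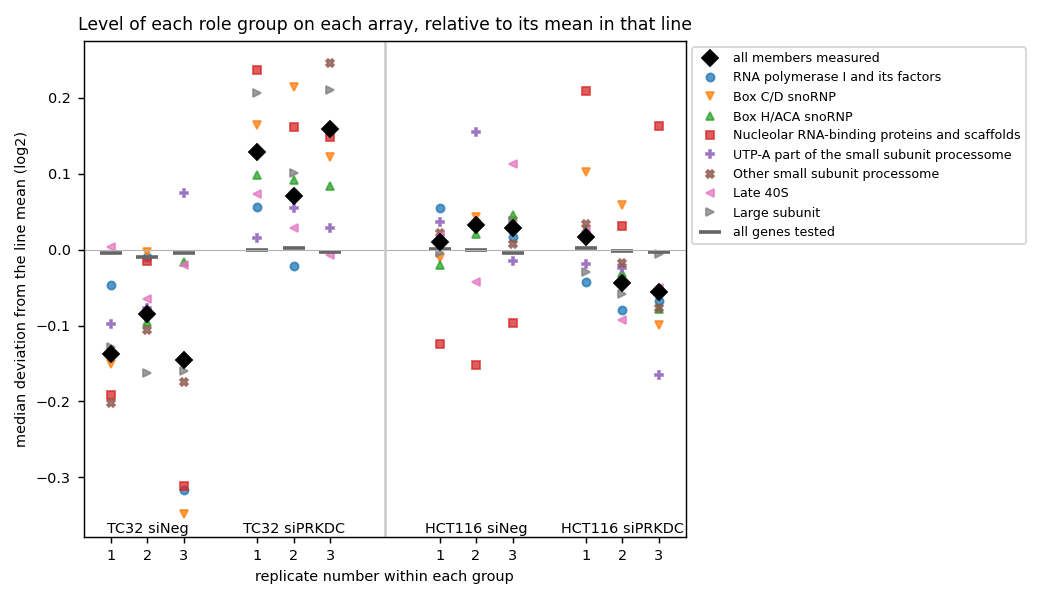
Median deviation of each role group from its mean in the line (y axis, log2) on each of the 12 arrays (x axis, replicate number within each group), with all 49 genes as diamonds and all measured genes as bars. The diamonds lie between -0.15 and -0.08 on the TC32 siNeg arrays and between 0.07 and 0.16 on the TC32 siPRKDC arrays, and between -0.06 and 0.03 on the HCT116 arrays.

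Array by array, the median gene of the list lay at -0.14, -0.08 and -0.15 relative to its TC32 mean with siNeg and at 0.13, 0.07 and 0.16 with siPRKDC. In HCT116 it lay at 0.01, 0.03 and 0.03 with siNeg and at 0.02, -0.04 and -0.06 with siPRKDC. All 3 treated TC32 arrays were above all 3 controls, while the HCT116 arrays overlapped. The median over all measured genes stayed within 0.01 of 0 on every array. The 13 large subunit genes ran from -0.16 to -0.13 and from 0.10 to 0.21 in TC32, and the 7 RNA polymerase I genes from -0.32 to -0.01 and from -0.02 to 0.16.

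Under siNeg the lines also differed in the level of these genes, and these differences share the siNeg arrays with the effects above. Levels were lower in TC32 than in HCT116 for 25 of 49 genes (51%, against 36.1% of all genes) and higher for 7 (14.3%, against 30.1%), where 66.2% of all genes differed either way. The median difference was -0.25, against -0.06 over all genes. BOP1 was 2.77-fold lower (log2 difference -1.47, SE 0.11, adjusted p = 3.71e-11), RRN3 2.30-fold lower (-1.20, SE 0.11, adjusted p = 4.90e-09), NOP56 2.00-fold lower (SE 0.09, adjusted p = 3.51e-09) and POLR1C 1.97-fold lower (-0.98, SE 0.09, adjusted p = 4.87e-09). HEATR1 was 2.22-fold higher (1.15, SE 0.10, adjusted p = 1.74e-09). None of these 5 overlapped between the lines. With siPRKDC, NOP56 in TC32 stood at 9.18 to 9.25, next to 9.21 to 9.35 in HCT116 siNeg, POLR1C at 7.76 to 7.99 next to 7.95 to 8.10, and BOP1 at 8.07 to 8.23, still below 8.47 to 8.91. Of the large subunit genes 9 of 13 were lower in TC32, and 7 of 10 other processome genes. Median scaling gave 33 lower and 4 higher, with the median of all genes at -0.21 and that of the list at -0.51. These counts cannot be set against the shares of all genes above, which are not those under median scaling.

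Other pathway genes of the wider list are named by the size of p. In TC32 the 5 with the smallest p were DIMT1, the 18S rRNA dimethyltransferase, which fell 2.55-fold (log2 change -1.35, adjusted p = 1.51e-09), the exosome subunit EXOSC7, which fell 1.96-fold (-0.97, adjusted p = 1.09e-08), and 3 that rose. The Ki-67 partner NIFK rose 2.09-fold (log2 change 1.07, adjusted p = 8.11e-09), the 40S kinase RIOK1 2.05-fold (1.04, adjusted p = 4.30e-08) and RRP15 1.79-fold (0.84, adjusted p = 5.81e-07). In HCT116 these 5 changed by -0.02 to 0.21 and none was called. The 5 with the smallest p in HCT116 were the exosome subunits EXOSC6 (log2 change -0.79, adjusted p = 1.87e-05) and EXOSC9 (-0.61, adjusted p = 8.08e-05), LAS1L (-0.40, adjusted p = 0.00542), an endonuclease of the large subunit precursor, KRR1 (-0.44, adjusted p = 0.00605) and NMD3, the 60S export adaptor, which rose (0.34, adjusted p = 0.0159). In TC32 those 5 changed by -0.25 to -0.06 and none was called. The effect differed between the lines for 8 of these 10 genes, where it differed for 32% of all genes. Each gene was picked by its p in 1 line, on the same arrays. A difference was therefore likely beforehand, and the count is no evidence of one. The TC32 minus HCT116 difference was below 0 for DIMT1 (-1.33, adjusted p = 7.76e-07), EXOSC7 (-0.99, adjusted p = 2.68e-06) and NMD3 (-0.41, adjusted p = 0.0290). For RIOK1 (0.96, adjusted p = 2.96e-05), NIFK (0.86, adjusted p = 3.99e-05), EXOSC6 (0.71, adjusted p = 0.00113), RRP15 (0.63, adjusted p = 0.00171) and EXOSC9 (0.43, adjusted p = 0.0169) it was above 0. The differences of LAS1L (0.27, adjusted p = 0.139) and KRR1 (0.19, adjusted p = 0.368) were not called.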

How the data were processed

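Labelled cRNA was made with the TotalPrep-96 kit from RNA extracted with a Maxwell 16 kit, per the labels' protocols. The authors deposited probe intensity values on a linear scale, not normalized, with a detection p-value per probe and array per the file headers, and log2 values quantile normalized within each line. The submitters' processing notes name GenomeStudio, R 3.0.2 and lumi. Intensities were corrected with neqc in limma 3.58.1 (R 4.3.3; offset 16, detection p-values, quantile normalization over 12 arrays). Of 47322 probes, 30113 were paired with 1 gene by the platform annotation, and 16555 passed the filter. Each gene was represented by its brightest kept probe (70 kept probes for the 49 genes, 14 with more than 1). The 4 groups were fitted together (8 residual and 13.5 prior degrees of freedom), and tests were two-sided. An exact permutation test of 3 against 3 cannot go below 0.1 and was not used. The code was tested on simulated data.

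The members and lists were chosen with earlier results of these data known. Values on each array are given for the 8 genes with the smallest p in TC32, 6 in HCT116, 5 in the difference and 5 between lines, for opposite calls and for the 3 smallest changes; the wider list gives 5 per line. Same-numbered samples deviated with r of 0.02, 0.05 and 0.11 in TC32 and 0.00, 0.06 and 0.05 in HCT116. Samples of different number gave -0.07 to 0.03 in TC32 and -0.07 to 0.01 in HCT116. These small values do not show that samples were unpaired. The main fit did not pair samples by number, and the replicate block was run as an alternative. The number of arrays limits the precision. Alternatives covered background, scaling, offset, filter, probe choice, fit options, the replicate block and leaving out each array.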

Additional observations from a re-analysis of the deposited data

Results flagged for a closer look

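The effect of siPRKDC differed between the lines for 18 genes (TC32 minus HCT116 on the log2 scale, limma's adjusted p). The differences were 1.18 for PNO1 (7.85e-06), 1.07 for NOP56 (2.68e-06), 0.89 for POLR1C (2.52e-05), 0.84 for BOP1 (0.000186), 0.80 for RRS1 (8.50e-05), 0.74 for NOP14 (0.000437), 0.59 for IMP3 (0.00151) and 0.57 for NIP7 (0.00121). They were 0.55 for NOP2 (0.0117), 0.54 for RRP1 (0.0166), 0.54 for NAT10 (0.00258), 0.53 for UBTF (0.0268), 0.52 for UTP14A (0.00833), 0.52 for DKC1 (0.00313), 0.46 for PES1 (0.0162), 0.45 for MRTO4 (0.0186), 0.40 for RRP12 (0.0451) and -0.44 for DDX21 (0.0289). Of the 18, 12 stayed called under every alternative run. The exceptions were UBTF, DDX21, RRP12, NOP2, RRP1 and MRTO4. Of the 31 members not called in the difference, 18 were not called under any alternative. The rest, NOP58, GAR1, NOP16 and DDX56 among them, were called under at least 1. RRP12 was lost under 10 of 23, with the adjusted p between 0.0187 and 0.141, among them leaving out TC32 siNeg replicate 2 (0.0840) or 3 (0.100), TC32 siPRKDC replicate 1 (0.141) or 3 (0.0507), or HCT116 siNeg replicate 1 (0.0968) or 2 (0.0754), or HCT116 siPRKDC replicate 2 (0.0925) or 3 (0.0912). RRP1 was lost without TC32 siPRKDC replicate 3 (0.0513) or HCT116 siPRKDC replicate 1 (0.0597), MRTO4 without TC32 siNeg replicate 2 (0.0586) or HCT116 siNeg replicate 3 (0.0504), and NOP2 with the mean of its probes (0.0960). For NOP14 and POLR1C the brighter of 2 probes was called in the difference and the other was not. The PRKDC fall itself differed by 1.25 (adjusted p = 4.59e-05), and by 0.33 with the mean of its kept probes (adjusted p = 0.0596).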

How the results depend on the processing

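Higher calls in TC32 stayed within 1.5 times of 25 in all alternatives run, and of the 27 calls 17 held in each. The numbers were 4 of 7 in HCT116, 12 of 18 for the difference and 27 of 32 between lines under siNeg. Of the members not called, 15 of 22 stayed so in every alternative in TC32 and 37 of 42 in HCT116. For the difference 18 of 31 did, and between lines 8 of 17. The replicate block gave 25 higher and 2 lower in TC32, 3 and 3 in HCT116, 18 and 1 for the difference and 7 and 25 between lines, where NAT10 in HCT116 lost its call and NOP16 gained one in the difference. Lower calls in TC32 were 1 under median scaling and with each line fitted alone. Lower calls in HCT116 were 9 under median scaling and 7 in the authors' deposited values. For the difference, median scaling gave 26 upward; downward calls were 2 with no background correction and with an offset of 50, and 0 under median scaling and with no filter. Higher calls between lines were 4 under median scaling. All these counts are of members alone, and the share of all genes called also depends on the setting. The TC32 median moved to 0.12 with no background correction, 0.31 with median scaling, 0.18 with an offset of 50 and 0.13 in the deposited values, and the HCT116 median to -0.00377 with cyclic loess and -0.14 with median scaling. The median difference moved to 0.15 (no background correction), 0.27 (cyclic loess), 0.38 (median scaling), 0.19 (offset of 50) and 0.28 (mean of probes), and the median between lines to -0.14, -0.21, -0.51, -0.18 and -0.22 under the same 5, to -0.19 with no filter and -0.20 with each probe by itself. Leaving out 1 array gave medians of 0.25 to 0.30 in TC32, -0.0628 to -0.0298 in HCT116, 0.27 to 0.33 for the difference and -0.26 to -0.18 between lines. Calls of members then ranged from 20 to 26 higher and 1 to 3 lower in TC32, and from 3 to 3 and from 2 to 5 in HCT116. For the difference they ranged from 16 to 19 and from 0 to 1, and between lines from 6 to 7 and from 23 to 25. Without the shares of all genes in the same fits, these counts do not show how far the members stand out. WDR75 between lines, not called at 0.05, was lower in TC32 by -0.26 under median scaling (adjusted p = 0.0219), where the median of all genes was -0.21 in place of -0.06; relative to it little of the change remains. The cause of these shifts was not tested. POLR1A, UBTF, UTP15, RRP9 and NOC4L were not detected on every array and are limited by signal over background.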
